A study of Mus musculus with 2 samples.

Results

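Glucose is carried into cells, split to pyruvate by glycolysis, and the pyruvate is then either turned to lactate and exported or admitted to mitochondria through the pyruvate dehydrogenase complex. The 38 genes described here cover that route: glucose transporters, the enzymes from hexokinase to pyruvate kinase and their regulators, lactate dehydrogenases, monocarboxylate transporters, and the pyruvate dehydrogenase complex with its kinases. They were taken by symbol from the 47644 genes of the deposited table, and each symbol occurred once; the rule uses no measured value, although the list was drawn up with earlier results of these data known. RNA was sequenced from eyeballs of C57BL/6 mice in 1 control library (labelled NOR) and 1 library of oxygen-induced retinopathy (OIR). In the model, as described for the series, mice entered a hyperoxia chamber at day 7, stayed for 5 days, then lived in ordinary air, and eyes were taken at day 17. Not given in the sources used here are the number of animals or eyes per library and the age of the control, and the labels name no genetic change in either group. The series asks by what mechanism vision stays impaired in this model.

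The neural retina is known for converting much of its glucose to lactate even when oxygen is present, and photoreceptors are its main glycolytic cells. Glycolysis is also a classic target of hypoxia-inducible factors (HIF), transcription factors that bind a short core sequence and raise transport of glucose, several glycolytic enzymes, lactate export by the transporter MCT4 and the kinases that close the pyruvate dehydrogenase gate. Most steps are served by a family of isozymes encoded by separate genes, so the pathway can differ both in amount and in the isozyme used.

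Reads assigned to genes numbered 15741235 in the control and 20378793 in OIR. Levels are FPKM, which scale reads to gene length and library total, and the measure of difference is log2(FPKM + 1) in OIR minus control; for low genes it gives less than the true fold. As each group is 1 library, nothing was tested and no spread between replicates is known: "higher" and "lower" describe these 2 libraries. The ratio of read shares (the share of all reads that fell on a gene, OIR over control) is given with an exact conditional 95% Clopper-Pearson interval, which covers counting error only: no molecular identifiers are mentioned, so reads need not be independent molecules, and animals vary. Whole eyeballs hold many tissues, and in such samples fewer cells of a type and less RNA per cell cannot be told apart. The rod list of 8 markers took 2.47% of reads in the control and 2.48% in OIR, the 9-gene lens list 10.9% and 7.70%, and the 7-gene corneal epithelium list 0.0708% and 0.217%. The median difference of the 15883 genes that reached 1 FPKM in the control or in OIR, called compared genes here, was 0.11 above 0.

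Of the 38 genes 36 passed that filter. Pfkfb1 and Pdk4 did not: Pfkfb1 had 16 control and 25 OIR reads, a ratio of 1.21 (0.619 to 2.42), Pdk4 had 18 and 29, a ratio of 1.24 (0.668 to 2.38), and both stood below 1 FPKM in each library. The differences of the 36 ran from -0.47 for Ldhb to 1.47 for Pfkp, with a median of 0.20, or 0.09 above the median compared gene, and 24 lay above 0 and 12 below, beside 64.9% of all compared genes above 0. At least 2-fold higher in OIR were 2 genes, Pfkp and Slc16a3, where 3.07% of all compared genes were, and none was at least 2-fold lower (0.718% of all). At least 1.5-fold higher were 6 genes, Pfkp, Slc16a3, Hk1, Pfkl, Pfkfb3 and Pdk1, where 9.11% of all were, and none was at least 1.5-fold lower (2.58%). Hk2 lay just under that threshold, at 0.58 against 0.585. With the authors' scaling Ldhb, at -0.61, was at least 1.5-fold lower. The counting interval of the ratio lay above 1 for 21 genes and below 1 for 6, against 36.7% and 14.7% of all compared genes. With the authors' scaling it lay above 1 for 19 and below 1 for 12, against 23.2% and 25.4% of all. The spans of 17 of the 38 genes overlap another gene; among the 20 compared genes that overlap none, 1 was at least 2-fold higher, since Pfkp is left out, and 3 at least 1.5-fold higher. These shares are descriptions, since abundant genes have narrow intervals.

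The pathway as a whole took a larger share of the OIR library. All 38 genes together had 243453 control reads and 383099 OIR reads, 1.55% and 1.88% of each library, a ratio of 1.22 (1.21 to 1.22). Among the 17 core enzyme genes from hexokinase to pyruvate kinase, 13 lay above 0, with a median difference of 0.23. Of all compared genes, 64.9% lay above 0. Set against the median compared gene instead of 0, 11 of the 17 lay above it. Of all 36 pathway genes compared, 21 lay above that median and 15 below. At high abundance the values were as follows. Of the 766 compared genes with a mean FPKM of at least 100, 44.4% lay above 0 with a median of -0.06. The 18 pathway genes at that level had a median of 0.22, and 83.3% lay above 0.

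**Figure D1:**
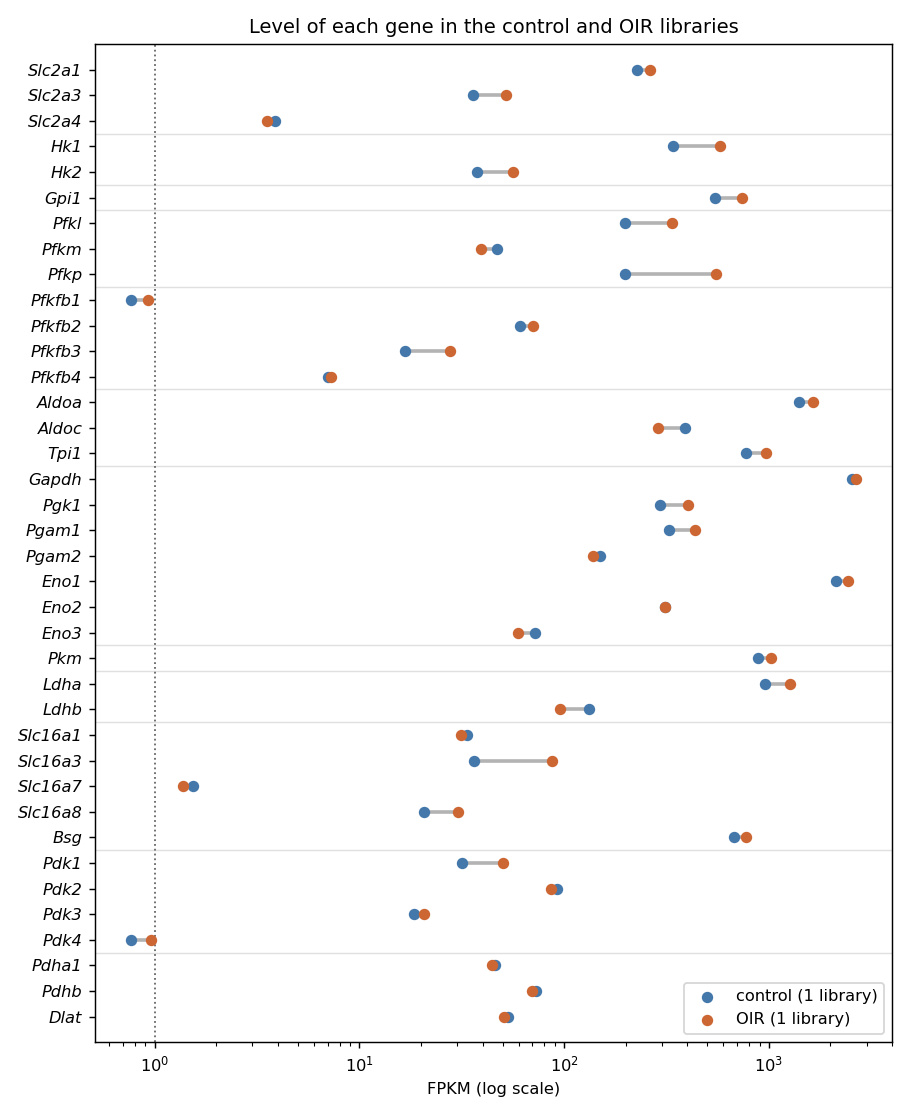
Level of each of the 38 genes in FPKM on a log axis, in pathway order from transport to the pyruvate dehydrogenase complex, with 1 point for the control library and 1 for the OIR library. The dotted line marks 1 FPKM. Pfkp and Slc16a3 show the widest gaps, and Ldhb, Aldoc, Pfkm and Eno3 have their OIR point to the left.

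Direction depended in part on how the libraries were scaled. The median over the 36 genes was 0.06 with the authors' scaling and 0.30 after rescaling to TPM, where the median compared gene stood at -0.02 and 0.20. The authors' own scaling factors lower every log2 ratio by 0.14 (a shift of -0.14). Across 7 scalings, 21 of the 36 genes lay above 0 in each, 9 lay below 0 in each, and 6 changed sign: Gapdh, Eno2, Pfkfb4, Pdha1, Pdhb and Dlat. In the authors' deposited table, 2 of the 38 are marked as up, Pfkp and Slc16a3, and none as down, where the table marks 0.426% and 0.0314% of the 22321 genes that carry its mark.

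Promoter sequences are shown for genes on which these results turn, to let the upstream DNA be read beside the values. They are the 250 bases before a RefSeq start of the gene on its own strand, on GRCm38.p6 (the build of mm10). Matches to the HIF core are in capitals. A RefSeq start can lie inside the gene span of the deposited table. That of Ldha is at 46845804 with a span from 46841475, and that of Slc16a3 at 120949067 with a span from 120948480. The letters searched were ACGTG and GCGTG on both strands, so that CACGT and CACGC on the gene's strand also count, and the palindrome CACGTG counts as a match on each strand. Pfkp, Slc16a3 and Hk1 had the highest differences among genes with a printable window; Pgk1, Ldha and Ldhb were added after their values were seen, Pgk1 as a gene often studied for HIF binding and the other pair for their opposite differences. The windows lie at chr13:6648772-6649021 on the minus strand for Pfkp, chr11:120948817-120949066 on the plus strand for Slc16a3, chr10:62379909-62380158 on the minus strand for Hk1, chrX:106186850-106187099 on the plus strand for Pgk1, chr7:46845554-46845803 on the plus strand for Ldha and chr6:142507958-142508207 on the minus strand for Ldhb.
Pfkp: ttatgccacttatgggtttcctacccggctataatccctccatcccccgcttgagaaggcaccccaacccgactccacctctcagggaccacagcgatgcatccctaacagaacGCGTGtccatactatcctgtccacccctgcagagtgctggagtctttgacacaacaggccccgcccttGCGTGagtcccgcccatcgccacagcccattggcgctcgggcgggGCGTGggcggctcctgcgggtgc
Slc16a3: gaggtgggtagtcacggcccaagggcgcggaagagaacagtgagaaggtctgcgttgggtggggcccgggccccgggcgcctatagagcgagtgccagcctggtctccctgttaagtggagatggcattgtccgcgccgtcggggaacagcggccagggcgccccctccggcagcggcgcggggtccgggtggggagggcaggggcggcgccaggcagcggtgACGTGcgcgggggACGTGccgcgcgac
Hk1: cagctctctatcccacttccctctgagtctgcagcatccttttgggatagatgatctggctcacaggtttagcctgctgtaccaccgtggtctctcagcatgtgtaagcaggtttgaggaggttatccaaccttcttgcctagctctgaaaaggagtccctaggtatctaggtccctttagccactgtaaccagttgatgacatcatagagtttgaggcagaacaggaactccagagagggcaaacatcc
Pgk1: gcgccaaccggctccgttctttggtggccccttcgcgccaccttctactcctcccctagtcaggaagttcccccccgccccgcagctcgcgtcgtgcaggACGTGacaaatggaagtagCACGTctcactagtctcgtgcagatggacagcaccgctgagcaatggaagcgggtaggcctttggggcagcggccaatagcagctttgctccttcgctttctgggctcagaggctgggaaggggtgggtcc
Ldha: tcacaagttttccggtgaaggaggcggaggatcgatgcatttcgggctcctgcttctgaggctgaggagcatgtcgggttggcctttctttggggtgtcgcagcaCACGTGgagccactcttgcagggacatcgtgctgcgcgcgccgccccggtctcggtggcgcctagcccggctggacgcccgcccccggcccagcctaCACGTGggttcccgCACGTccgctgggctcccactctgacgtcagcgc
Ldhb: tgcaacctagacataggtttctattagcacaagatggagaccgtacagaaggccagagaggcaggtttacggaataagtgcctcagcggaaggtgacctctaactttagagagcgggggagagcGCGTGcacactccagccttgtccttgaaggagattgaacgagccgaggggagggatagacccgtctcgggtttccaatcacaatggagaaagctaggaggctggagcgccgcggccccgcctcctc

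The Pfkp window holds 3 matches, all GCGTG, the nearest 23 to 19 bases before its RefSeq start. The Slc16a3 window holds 2 ACGTG matches within 27 bases of its RefSeq start. Ldha has 5 matches, which come from 2 CACGTG palindromes and 1 CACGT, Pgk1 has 2 and Ldhb 1. A second RefSeq start of Ldha, whose window is not printed, has 1 match, as Ldhb does. Hk1 has none in the window printed. A second RefSeq start of Hk1 has 3, and its window is not printed because 186 of its bases lie in annotated exons. The printed windows of Pfkp and Slc16a3 hold 6 and 14 exonic bases, and those of Hk1, Pgk1, Ldha and Ldhb hold 0. Over 34 of the 38 genes with an entry there were 53 windows, and 38 of them (71.7%) held a match, beside 38.6% of all 32851 windows. Windows of the same gene can overlap and share a match, as for Aldoa and Eno1. By gene, 28 of the 34 held a match in a window, beside 41.5% of all 27025 genes with an entry. A gene counted if any of its windows held a match, so a gene with more windows could count more easily. There were 53 windows for the 34 genes and 32851 for the 27025. Base composition differs too, with a median GC content of 59.2% for the 53 windows and 52.4% for all. Among windows of at least 60% GC, 24 of the 26 from this pathway held a match and 63.8% of all did. The 28 genes with a match had a median difference of 0.20 and ran from -0.47 to 1.47. They include Pfkfb1 and Pdk4, which did not reach 1 FPKM. The 6 genes without a match had a median of 0.16 and ran from -0.11 to 0.52. Slc16a1 with 4 matches and Pdha1 with 3 had differences of -0.10 and -0.04. A match is a stretch of letters, and binding was not measured here.

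The median difference was 0.22 for the 3 glucose transporters, and for the next steps 0.68 for hexokinases, 0.44 for the isomerase and 0.76 for phosphofructokinases. With the authors' scaling these medians were 0.08, 0.54, 0.30 and 0.63. Slc2a1, which encodes the main glucose transporter of retina and of the blood-retina barrier (GLUT1; ENSMUSG00000028645, chromosome 4, 119108711 to 119137983 on mm10), stood at 226 FPKM in the control and 262 in OIR, a ratio of 1.16 (1.12 to 1.20). It remained the leading transporter in both libraries, at 85.0% and 82.6% of the FPKM of its family. Slc2a3, which encodes the neuronal high-affinity transporter GLUT3, had 979 control reads and 1829 OIR reads, or 36.0 and 51.9 FPKM, a ratio of 1.44 (1.33 to 1.56). Slc2a3 was therefore higher relative to Slc2a1: the ratio of Slc2a1 to Slc2a3 in OIR was 0.805 times that in the control (0.739 to 0.876). Slc2a4, the insulin-responsive transporter of muscle and fat, was low in both, with 82 and 97 reads, and its ratio of 0.914 had an interval that included 1 (0.674 to 1.24). The endothelial marker list, which stands for cells that carry GLUT1 in barrier vessels, had all 8 genes above 0 with a median of 0.79, and its summed level was 99.2 FPKM in the control and 161 in OIR. Its part in the Slc2a1 difference was not tested.

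Hexokinases, which trap glucose as its phosphate, were both higher in OIR. Hk1 (ENSMUSG00000037012, chromosome 10, 62268855 to 62379908) stood at 338 FPKM in the control and 579 in OIR, with 6908 and 15316 reads and a ratio of 1.71 (1.66 to 1.76). Hk2, the inducible isozyme found in photoreceptors, had 37.4 and 56.2 FPKM, and the interval of its ratio ran from 1.41 to 1.61. Hk1 took 90.0% of the hexokinase FPKM in the control and 91.2% in OIR, while the family total went from 376 to 636 FPKM. The ratio of Hk1 to Hk2 in OIR was 1.14 times that in the control (1.06 to 1.22). The rod list, whose cells carry Hk2, had a median of 0.04 with 5 of 8 genes above 0, and its summed level was 16284 FPKM in the control and 16418 in OIR. The antisense gene Hk1os, whose span overlaps Hk1, had 18 and 45 reads. Gpi1, the isomerase that makes fructose phosphate, followed with 545 and 739 FPKM and a ratio of 1.36 (1.32 to 1.39).

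The committing step, phosphofructokinase, held the largest difference among the 36 genes and a different isozyme makeup. Pfkp, the platelet-type subunit (ENSMUSG00000021196, chromosome 13, 6579768 to 6648777), had 5211 reads in the control and 18798 in OIR, or 198 and 551 FPKM, a ratio of 2.79 (2.70 to 2.87). Pfkl, the liver-type subunit (ENSMUSG00000020277, chromosome 10, 77986947 to 78010083), had 198 FPKM in the control and 336 in OIR, which gave a ratio of 1.70 (1.64 to 1.77). Pfkm, the muscle-type subunit, was lower in OIR, at 47.2 FPKM in the control and 39.1 in OIR, with a ratio of 0.829 (0.781 to 0.880). Senp1, which overlaps the Pfkm span on the opposite strand, had 356 control and 562 OIR reads, beside 2115 and 2269 for Pfkm. The summed level of the family was 442 FPKM in the control and 926 in OIR.

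Pfkp and Pfkl were level with each other in the control, at 44.7% of the family each, while in OIR Pfkp took 59.5%, Pfkl 36.3% and Pfkm 4.22%. The ratio of Pfkl to Pfkp in OIR was 0.611 times that in the control (0.583 to 0.641), and that of Pfkm to Pfkp 0.297 times (0.278 to 0.318). The table also lists a gene length, which equals the length behind FPKM for 6 of the 38 genes. By that other length Pfkm took 24.6% of the family in the control and 10.8% in OIR. Pitrm1, on the opposite strand and overlapping the Pfkp span, had 460 and 522 reads, far fewer than Pfkp in either library. Markers of other cells were also higher in OIR: the 7 corneal epithelium genes all lay above 0 with a median of 1.39, summing to 423 FPKM in the control and 1254 in OIR, and the 5 compared erythrocyte genes of 8 found lay above 0 with a median of 1.39, the list summing to 593 and 1642 FPKM with Epb42 at 0 control reads. The part of these lists in the Pfkp and Slc16a3 values was not tested.

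PFKFB enzymes make and remove the fructose bisphosphate that activates phosphofructokinase. Pfkfb3, the isozyme with the highest kinase activity and a known driver of glycolysis in sprouting endothelium, had 579 reads in the control and 1247 in OIR, or 16.6 and 27.7 FPKM, a ratio of 1.66 (1.51 to 1.84). Pfkfb2, the most abundant of the family here, stood at 61.1 and 70.4 FPKM. The ratio of Pfkfb2 to Pfkfb3 in OIR was 0.692 times that in the control (0.618 to 0.775), and the share of Pfkfb3 went from 19.4% to 26.1% of the family. Pfkfb4, which hypoxia induces in many cell lines, had 7.01 and 7.26 FPKM, and its ratio of 1.04 had an interval that included 1 (0.855 to 1.26). The endothelial markers named above were higher beside Pfkfb3, and their part in its difference was not tested.

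Aldolases split the hexose into triose phosphates, and their isozymes differed in opposite directions. Aldoa, the broadly expressed form, stood at 1405 FPKM in the control and 1651 in OIR, with a ratio of 1.18 (1.16 to 1.20). Aldoc, the brain and retina form (ENSMUSG00000017390, chromosome 11, 78322968 to 78327781), had 387 FPKM in the control and 289 in OIR, with 7072 and 6821 reads and a ratio of 0.745 (0.721 to 0.770). The ratio of Aldoa to Aldoc was 3.63 in the control and 5.72 in OIR, 1.58 times as high (1.52 to 1.64). Fam57b overlaps the Aldoa span on the opposite strand and had 14525 and 21673 reads, so the Aldoa value is uncertain to the extent that counting could not separate them. Tpi1, the isomerase that interconverts the trioses, had 775 and 967 FPKM and a ratio of 1.25 (1.21 to 1.28).

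The lower part of the pathway, from glyceraldehyde phosphate to pyruvate, held the most abundant genes, Gapdh and Eno1. Its differences ran from -0.28 for Eno3 to 0.46 for Pgk1. Gapdh, a common reference gene, stood at 2534 FPKM in the control and 2671 in OIR, a difference of 0.08 that turned to -0.06 with the authors' scaling. Pgk1 and Pgam1, which carry out the next steps, were further apart, with ratios of 1.38 (1.34 to 1.42) and 1.35 (1.31 to 1.38). Pgk1 went from 292 to 404 FPKM and Pgam1 from 324 to 437. Eno1, the main enolase, had 2120 and 2439 FPKM, its ratio being 1.15 (1.13 to 1.17), and Pkm, the pyruvate kinase of retina, 885 and 1022 FPKM with 1.16 (1.14 to 1.17). The table gives 1 value for all transcripts of Pkm, so its M1 and M2 splice forms were not separated. Near copies named for these genes had few reads, Eno1b 3 and 9, Pgk1-rs7 26 and 51, and Pgam1-ps2 18 and 30.

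Enolases also differed in makeup. Eno2, the neuron-specific form, stood at 311 FPKM in the control and 312 in OIR, a ratio of 1.00 (0.970 to 1.04). Eno3, the muscle form, had 72.2 and 59.2 FPKM and a ratio of 0.821 (0.752 to 0.896). The ratio of Eno1 to Eno2 in OIR was 1.15 times that in the control (1.10 to 1.19). The 8 ganglion cell markers, genes of a neuron class that Eno2 also marks, had a median of -0.47 with 7 below 0, and their summed level was 413 FPKM in the control and 298 in OIR.

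Pgam2, the muscle phosphoglycerate mutase, had 149 FPKM in the control and 139 in OIR, a ratio of 0.929 (0.875 to 0.987). The 10 skeletal muscle markers summed to 135 FPKM in the control and to 142 in OIR. Those markers had a median of 0.23 with 9 of 10 above 0, from -0.44 for Mylpf to 1.27 for Myh1, and none was at 0 reads. Their part in the values of Pgam2, Eno3, Pfkm and Slc2a4 was not tested.

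**Figure D2:**
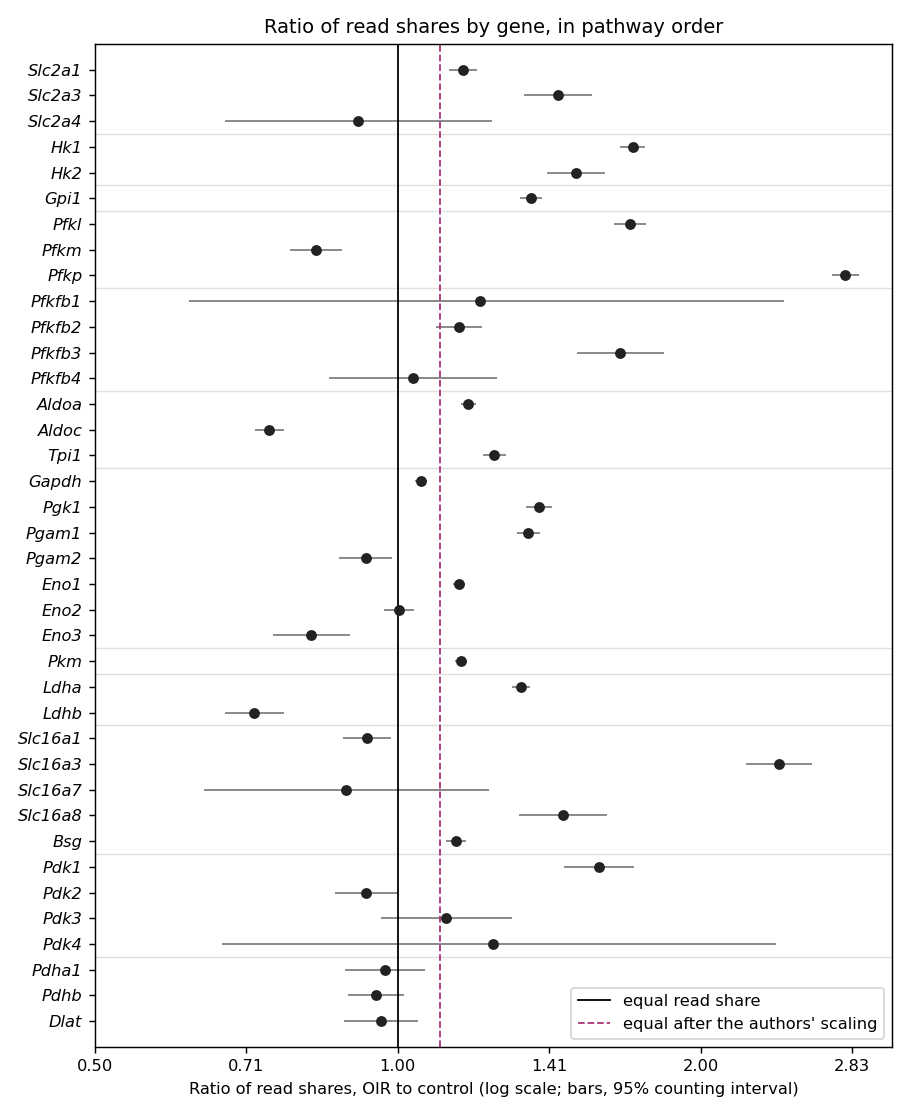
Ratio of read shares, OIR to control, for each of the 38 genes in pathway order on a log axis, with 95% counting intervals as bars. The solid line marks equal read shares and the dashed line equality after the authors' scaling. Pfkp at 2.79 and Slc16a3 at 2.39 stand farthest to the right, and Ldhb at 0.720 and Aldoc at 0.745 farthest to the left.

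Lactate dehydrogenases interconvert pyruvate and lactate, and their genes had opposite differences. Ldha (ENSMUSG00000063229, chromosome 7, 46841475 to 46855627), whose subunit favours lactate formation, had 14102 reads in the control and 24219 in OIR, or 960 and 1274 FPKM, a ratio of 1.33 (1.30 to 1.35). Ldhb (ENSMUSG00000030246, chromosome 6, 142490249 to 142507957), whose subunit favours the use of lactate, had 1774 and 1653 reads, or 133 and 95.7 FPKM, a ratio of 0.720 (0.673 to 0.770). Ldhb was the lowest of the 36 genes. The pseudogenes Ldha-ps and Ldha-ps2 had 0 control reads and 2 and 3 OIR reads. The ratio of Ldha to Ldhb was 7.23 in the control and 13.3 in OIR, 1.84 times as high (1.72 to 1.98). The ratio within a library depends on the gene lengths behind FPKM, and the ratio of ratios does not.

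Marker genes of inner retinal neurons and glia were also lower in OIR. The 8 Müller glia markers had a median of -0.45 with 7 below 0, and their summed level was 2625 FPKM in the control and 1689 in OIR. Bipolar cell markers had a median of -0.26 with 6 of 7 below 0, at 538 and 423 FPKM summed, and the ganglion cell markers are given above. None of the markers in these lists was at 0 reads. The 9-gene lens list was lower as well, at 104579 and 74006 FPKM summed. The part of these tissues in the Ldhb and Aldoc values was not tested.

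Monocarboxylate transporters pass lactate and pyruvate across membranes, and Slc16a3 had the highest difference here after Pfkp. Slc16a3, which encodes the export-type transporter MCT4 (ENSMUSG00000025161, chromosome 11, 120948480 to 120960868), had 887 reads in the control and 2747 in OIR, or 36.4 and 87.2 FPKM, a ratio of 2.39 (2.22 to 2.58). Slc16a1, which encodes MCT1 of photoreceptors, Müller glia, pigment epithelium and endothelium, had 33.6 and 31.3 FPKM and a ratio of 0.932 (0.882 to 0.985). Slc16a1 thus stood beside Slc16a3 in the control, at 0.921 times its FPKM, and at 0.359 times in OIR, a ratio of ratios of 0.390 (0.355 to 0.428). The table's other length puts Slc16a3 at 19.0% and 33.2% of the family instead of 39.5% and 58.1%, and Slc16a1 at 49.0% and 33.4% instead of 36.4% and 20.9%. Which of the pair is higher therefore rests on the length used in both libraries, and only the ratio of ratios is free of it.

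The remaining transporters were lower in level. Slc16a8, which encodes MCT3 of the basal pigment epithelium, had 20.7 and 30.2 FPKM and a ratio of 1.46 (1.32 to 1.61). Pick1, which overlaps its span on the opposite strand, had 624 and 1014 reads, beside 589 and 1112 for Slc16a8 itself. The 6 pigment epithelium markers, of which 5 were compared, had a median of 0.10, and their summed level was 659 FPKM in the control and 723 in OIR. Slc16a7, which encodes the high-affinity MCT2, had 73 and 84 reads, and its ratio of 0.889 had an interval that included 1 (0.642 to 1.23). Bsg, the chaperone basigin that brings MCT1 and MCT4 to the membrane, was abundant with 675 FPKM in the control, 772 in OIR and a ratio of 1.14 (1.12 to 1.17).

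The kinases that switch off pyruvate dehydrogenase also differed from each other. Pdk1, a known HIF target (ENSMUSG00000006494, chromosome 2, 71873224 to 71903858), had 896 reads in the control and 1837 in OIR, or 31.6 and 50.1 FPKM, a ratio of 1.58 (1.46 to 1.72). Pdk2, the most abundant kinase in both libraries, had 92.2 and 85.8 FPKM, and its ratio of 0.930 had an interval that just included 1 (0.865 to 1.00). Pdk3 had 18.5 and 20.7 FPKM with an interval that included 1 (0.963 to 1.30). The ratio of Pdk1 to Pdk2 was 0.343 in the control and 0.584 in OIR, 1.70 times as high (1.53 to 1.90), and Pdk1 took 22.1% and 31.8% of the kinase FPKM. Pdk4, a fasting-induced kinase, stayed below 1 FPKM in both, as given above.

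Genes of the complex that these kinases act on were nearly level. Pdha1 and Pdhb, the subunits of its first enzyme, had 45.8 and 44.5 FPKM and 73.2 and 69.6 FPKM, and Dlat, the acetyltransferase core, 53.0 and 50.9. Their ratios of 0.972, 0.951 and 0.961 all had counting intervals that included 1. With the authors' scaling the 3 stood lower, at -0.18, -0.21 and -0.20, and after rescaling to TPM they lay just above 0, at 0.06, 0.02 and 0.04.

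**Figure D3:**
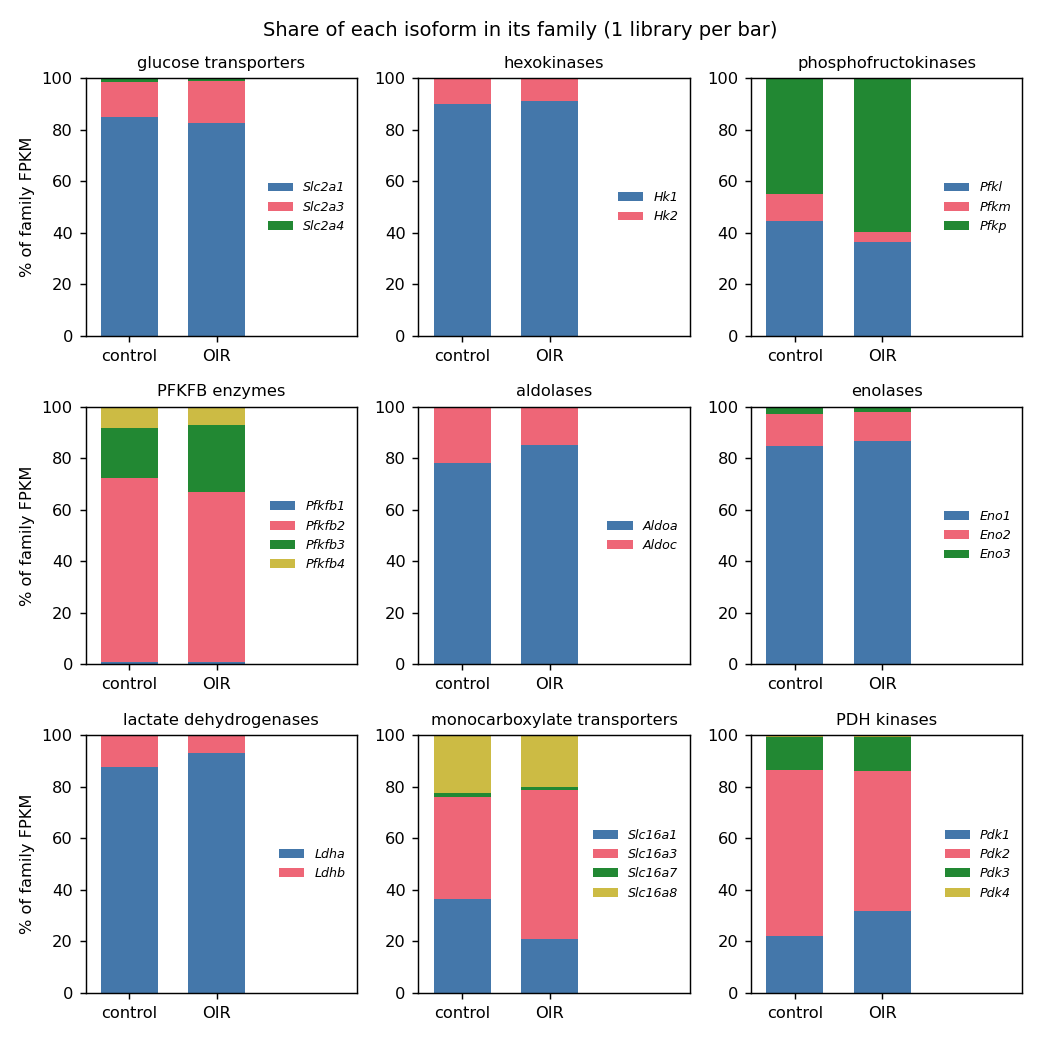
Share of each isozyme or transporter in the summed FPKM of its family, as stacked bars for the control and the OIR library in 9 families. Pfkp goes from 44.7% to 59.5% of phosphofructokinase, Slc16a3 from 39.5% to 58.1% of the monocarboxylate transporters, Pdk1 from 22.1% to 31.8% of the kinases and Ldha from 87.8% to 93.0% of lactate dehydrogenase.

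In all, 24 isozyme pairs from 9 families were compared between libraries by their read ratio, and the counting interval of 21 excluded 1. That count is a description only: no share was computed for pairs of other genes. Intervals are narrow where reads are many, and pairs within a family share genes. Pfkm against Pfkp was farthest from 1, followed by Slc16a3 against Slc16a7 with 2.69 (1.92 to 3.76) and Slc16a1 against Slc16a3. The 3 pairs whose interval included 1 were Slc2a1 with Slc2a4, Pfkfb2 with Pfkfb4, and Slc16a1 with Slc16a7.

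Lists for the routes next to glycolysis had medians nearer to 0 than the pathway's 0.20, or below 0. The median compared gene stood at 0.11, between the pathway and these lists. The 16 citric acid cycle genes had a median of -0.16, with 14 below 0, none at least 1.5-fold apart, and 11 whose interval lay below 1. Ogdh was the highest at 0.04 and Sdhd, a subunit of succinate dehydrogenase, the lowest at -0.49 with 47.0 and 33.2 FPKM. The 8 genes of the shuttles that carry cytosolic reducing equivalents into mitochondria had a median of -0.11, from -0.52 for Gpd1 to 0.39 for Gpd2. Pyruvate carriers and other genes of the pyruvate dehydrogenase complex had a median of 0.05 over 8 genes, with the carrier gene Mpc2 lowest at -0.37 and the phosphatase regulator gene Pdpr highest at 0.42.

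The 8 pentose phosphate genes had a median of 0.02, and the lowest was Pgls at -0.43. Glycogen genes had a median of 0.00 over 9 genes but ran wide: Gys1, the glycogen synthase of muscle and most tissues, had 201 reads in the control and 625 in OIR, a ratio of 2.40 (2.05 to 2.83), while Pygl, the liver-type phosphorylase, had 0.666 (0.606 to 0.732). Other hexose transporters had a median of -0.11 over 6 compared genes of 10, with Slc5a1, the sodium-coupled transporter SGLT1, at 25 and 215 reads and a ratio of 6.64 (4.38 to 10.5). Among other glycolytic isozymes 6 of 12 were compared, with a median of 0.09; Gapdhs, the sperm form of GAPDH, had 38 and 121 reads and a ratio of 2.46 (1.70 to 3.64). Only 2 gluconeogenesis genes of 6 were compared, Pck2 at 0.07 and G6pc3 at -0.09.

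Hypoxia-induced genes outside glycolysis are given for scale. The 10 genes of that list had a median of 0.70, with 9 above 0, 5 at least 1.5-fold higher and 4 at least 2-fold higher. Adm was the highest at 3.00 and P4ha1, a collagen hydroxylase gene, the lowest at -0.14.

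Other marker lists completed the description of the libraries. Microglia markers had a median of 0.42 with 7 of 8 above 0, at 52.3 and 77.2 FPKM summed, and cone markers -0.15 with 5 of 8 below 0, at 640 and 537. Of 6 adipocyte markers 1 was compared, at 1.36 FPKM summed in the control and 2.13 in OIR, with Cidec, Lep and Cfd at 0 control reads and Adipoq at 0 OIR reads. Mitochondrial mRNAs had a median of -0.51 over 12 compared genes, all below 0. The ribosomal RNA list, with 4 of 5 genes found, took 0.00495% of control reads and 0.0773% of OIR reads. Nearly all of these were mitochondrial, from mt-Rnr1 with 258 control and 5045 OIR reads and mt-Rnr2 with 520 and 10696. The gene n-R5s1 had 0 reads in each library, so these values say little of ribosomal RNA outside mitochondria. The part of these lists in the pathway's values was not tested.

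**Figure D4:**
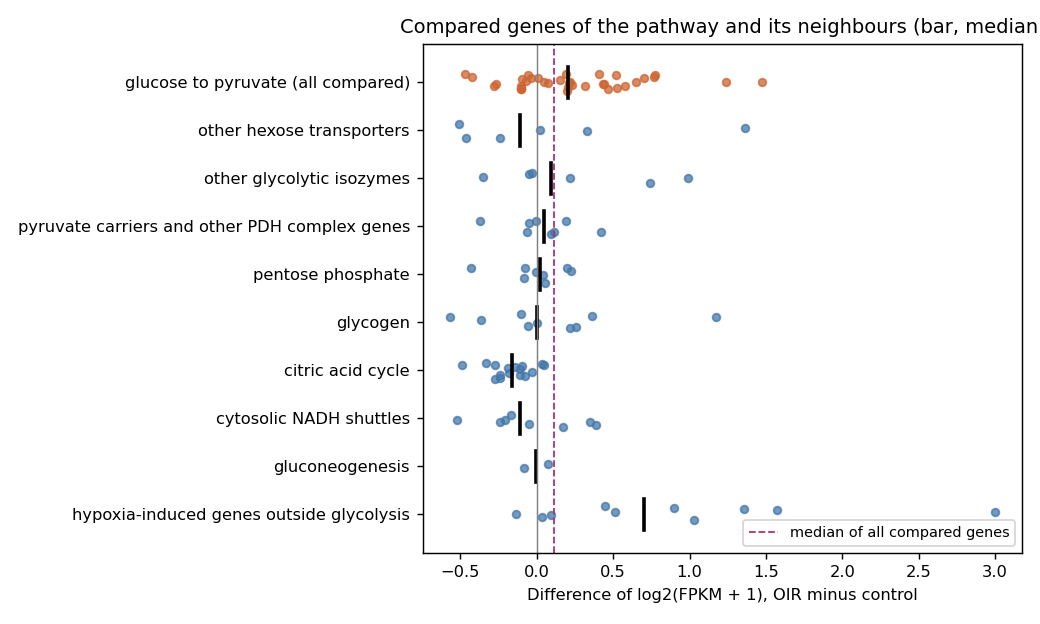
Difference of log2(FPKM + 1), OIR minus control, for every compared gene of the pathway (36 genes) and of 9 neighbouring gene lists, with 1 point per gene, scattered vertically for view, and a bar at the median of each list. The dashed line marks the median of all compared genes at 0.11. The pathway has its median at 0.20, the citric acid cycle at -0.16 and the hypoxia list at 0.70.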

How the data were processed

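RNA of mouse eyeballs was sequenced in 1 control and 1 OIR library. The authors deposited 1 table of read counts per gene with 15741235 and 20378793 reads, per the file headers. It also holds FPKM values made by the authors, a scaled signal (the counts over 1 factor for each library), their log2 fold changes and their p-values, which are not printed because they compare 1 library with 1. The mm10 build, HTSeq 0.6.1, TopHat2 2.0.12 and Bowtie2 2.2.3 are named in the submitters' processing notes. Not given in the sources used here are their roles and settings, the annotation release and whether strand was used. Reads from overlapping genes or near copies therefore cannot be separated. The length implied by FPKM equalled the length in the deposited table, within 1 base, for 6 of the 38 genes.

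The table was read by gene symbol after 5 broken text lines were dropped. Differences used a pseudocount of 1 and genes that reached 1 FPKM in the control or in OIR, and calls were made by size alone (2-fold and 1.5-fold). Ratios of read shares and of isozyme reads have exact conditional 95% intervals (scipy 1.17.1, R 4.3.3; Python 3.11.15, numpy 2.4.6, pandas 2.3.3, matplotlib 3.10.9), which narrow with the reads of a gene. The scripts were tested on simulated data with 200 changed genes. Promoter windows came from RefSeq on GRCm38.p6. The pathway genes and all lists were chosen with earlier results of these data known. Every pathway gene is named, with the highest and lowest gene of each other list, except that some list genes are not reported here; any other gene is said to be chosen after its values were seen, unless it overlaps or copies a pathway gene or is a marker at 0 reads. Alternatives were other pseudocounts, filters, scalings, thresholds and lengths.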

Additional observations from a re-analysis of the deposited data

How the results depend on the processing

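Depth limits single genes with few reads (Slc2a4, Slc16a7, Pfkfb1, Pdk4), and no setting supplies the missing spread between animals. Over the alternatives, 49 values of the counts and of the median over all 36 genes moved little and 9 moved more. A count was said to move little when it changed by at most 1.5 times, and other values when they stayed within the counting interval. So the 6 genes at least 1.5-fold higher became 9 after rescaling to TPM and 4 when centred within 20 bins of gene length, and both were taken as moving little. For step medians, single genes and isozyme ratios, 353 values moved little and 149 moved more. Part of the 353 could not move. Isozyme ratios were set against FPKM, where length and library size cancel, and a filter leaves the difference of a single gene unchanged. No gene or step at least 1.5-fold apart changed direction, but 6 genes nearer to 0 did, and so did 3 step medians: GAPDH to enolase ran from -0.06 to 0.17, lactate dehydrogenases from -0.17 to 0.07, and the pyruvate dehydrogenase complex from -0.20 to 0.04. The median of 0.20 over the 36 genes became 0.0891 when centred on the median gene, 0.30 after rescaling to TPM, 0.0628 with the authors' scaled counts and 0.12 when centred within 20 bins of gene length. With the authors' scaled counts 1 gene, Ldhb, was at least 1.5-fold lower. No gene (0) reached 4-fold. In an alternative chosen after seeing the data, the genes whose span overlaps no other gene had a median of 0.10, with 1 gene at least 2-fold and 3 at least 1.5-fold higher. The cause of these shifts was not tested, apart from the fewer genes in the last and the higher threshold in the one before it. Isozyme shares by the deposited length, also chosen after seeing the data, stand beside the Pfkm and Slc16a3 values. No paired analysis was possible because each group holds 1 library and the titles carry no replicate numbers; for the same reason no library could be left out.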
